A study of Mus musculus with 6 samples.

Results

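The Dlk1-Dio3 cluster is a group of imprinted genes on mouse chromosome 12, and it was followed here in 6 RNA-seq libraries of satellite cells, the resident stem cells of skeletal muscle. Its members were taken by gene symbol: Meg3, Rian and Mirg, the long noncoding RNAs of the cluster, and Dlk1, Rtl1 and Dio3, its coding genes. All 6 were found among the 24980 rows of the table. The symbols were picked with the values of these libraries already seen, so the levels of the 6 genes below are a description and carry no test. The cells came from hindlimb muscles of adult C57BL6/J mice and were isolated by flow cytometry. The 3 KO libraries are from mice labelled scERα KO, in which the estrogen receptor α gene Esr1 is targeted in satellite cells, and the 3 WT libraries are from mice labelled scERα WT. Mice of both groups received tamoxifen, 10 mg in total. The labels name neither the Cre driver nor the targeted allele, and do not say whether WT mice carried Cre. They do not give the sex of the mice, nor whether each library is a separate mouse, so p-values below measure the spread between libraries, which may be technical. The comparison asks what differs in satellite cells when Esr1 is targeted in them.

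In imprinted genes the copy from one parent is used and the other is silent. At this cluster the noncoding RNAs are made from the maternal copy and the coding genes from the paternal copy, under the control of a methylated region upstream of Meg3. Meg3, Rian and Mirg are read in the same direction and carry within or between them a large set of microRNAs and box C/D small nucleolar RNAs. In mouse muscle the cluster is known for its microRNAs, which are abundant in muscle stem cells and are controlled by the transcription factor MEF2A, and for Dlk1, a membrane protein related to Notch ligands that affects muscle growth and regeneration. Dio3 inactivates thyroid hormone, and Rtl1 is a retrotransposon-derived gene needed in placenta and fetal muscle.

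The values are TPM, a level per transcript length on a scale of fixed total. The listed rows held between 29.5% and 33.4% of the TPM scale in each library, and small structured and ribosomal RNAs took 62.6% to 66.8% of what was listed. Sequencing depth cannot be had from TPM, so values carry no counting interval. Esr1, the targeted gene, had 2.92, 3.69 and 3.87 TPM in KO libraries 1 to 3, against 7.53, 6.96 and 6.94 TPM in WT libraries 1 to 3. The groups did not overlap, and the KO mean of 3.49 ± 0.505 TPM was 48.9% of the WT mean of 7.14 ± 0.335 TPM (SD, n = 3 each). With limma, over the 8971 genes that reached 1 TPM in at least 3 libraries, the difference had a Benjamini-Hochberg adjusted p of 0.0925, above the threshold of 0.05 for a call, and it had p = 0.1 in an exact two-sided permutation test, the smallest that 3 against 3 libraries can give. Gene-level TPM also holds reads from exons outside any deleted part of the gene. The 10 satellite cell markers, Pax7 and Myf5 among them, summed to 486, 568 and 449 TPM in KO libraries 1 to 3 and to 506, 573 and 441 TPM in WT libraries 1 to 3. Sdc4 was the largest part of the sum, with means of 185 TPM in KO and 220 TPM in WT libraries. By gene the markers were not even, with log2 differences above 0 for 7 and below 0 for 3. Vcam1 and Cdh15, 2 of the 10, had every KO library above every WT library, beside 13.5% of all genes tested.

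The annotated interval from the start of Dlk1 to the end of Dio3 is chr12:109452823-110281097 (GRCm38, 828.3 kb). GENCODE vM21 and RefSeq place 130 genes in it, of which 77 were listed. On the plus strand, in order, lie Dlk1 at chr12:109452823-109463336, Meg3 at chr12:109541001-109571726, Rian at chr12:109603940-109661716, Mirg at chr12:109729764-109749460 and Dio3 at chr12:110279068-110281097. Rtl1 lies on the minus strand at chr12:109589193-109600330, between Meg3 and Rian.

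The Meg3 promoter is shown because Meg3 is the first of the noncoding RNAs and the most abundant member. The window runs from 250 bases before the RefSeq start to 50 after it, at chr12:109540746-109541045 on the plus strand. The capitals mark TGACGTCA, the cAMP response element, whose first base lies 57 bases before the start.
Meg3 promoter: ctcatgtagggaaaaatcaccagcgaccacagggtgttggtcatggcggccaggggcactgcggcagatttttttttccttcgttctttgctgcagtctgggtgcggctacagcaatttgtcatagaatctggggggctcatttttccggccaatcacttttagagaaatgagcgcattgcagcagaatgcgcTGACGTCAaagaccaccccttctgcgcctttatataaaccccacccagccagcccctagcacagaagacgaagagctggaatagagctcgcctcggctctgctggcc
A second window, the one RefSeq gives for Mirg at chr12:109734731-109735030 on the plus strand, is shown because its letters hold mature microRNAs of 2 hairpins whose means lay in opposite directions in these libraries, Mir668 and Mir485, though neither passed the test. The capitals mark in order miR-668-5p (bases 3 to 26 of the window), miR-668-3p (bases 44 to 67) and miR-485-3p (bases 216 to 237). The other arm of Mir485 was not in the sequences used, so it is not marked. The window lies inside the GENCODE span of Mirg.
Mirg window: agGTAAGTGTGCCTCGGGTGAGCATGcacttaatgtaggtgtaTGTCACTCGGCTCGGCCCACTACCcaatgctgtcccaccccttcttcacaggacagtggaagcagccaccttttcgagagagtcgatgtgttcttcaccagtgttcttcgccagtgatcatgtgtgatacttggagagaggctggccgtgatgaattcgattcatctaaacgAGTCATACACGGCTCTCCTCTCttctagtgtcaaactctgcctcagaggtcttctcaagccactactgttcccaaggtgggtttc

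MicroRNAs of some hairpins described below are given next as RefSeq mature sequences (GRCm38.p6), with the seed, bases 2 to 8, in capitals. First are those of Mir1193, the hairpin with the highest mean level, beside the arms of 2 other hairpins of the cluster that carry the same seeds. The seed GGUAGAC is shared by miR-1193-5p and miR-379-5p, and AGGUCAC by miR-1193-3p and miR-370-5p.
miR-1193-5p: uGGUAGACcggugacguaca
miR-379-5p: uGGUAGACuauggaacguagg
miR-1193-3p: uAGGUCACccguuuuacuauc
miR-370-5p: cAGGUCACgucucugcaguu
Next are the arms of Mir668 and Mir540, among the hairpins with the highest mean levels, and of Mir154, which had an unadjusted p under 0.05 in limma. All 3 had log2 differences above 1, as did other hairpins that passed the filter and are not printed.
miR-668-5p: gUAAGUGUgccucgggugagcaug
miR-668-3p: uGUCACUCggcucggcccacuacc
miR-540-5p: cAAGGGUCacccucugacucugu
miR-540-3p: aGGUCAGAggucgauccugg
miR-154-5p: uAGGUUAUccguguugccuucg
miR-154-3p: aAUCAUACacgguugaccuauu
Last are arms of Mir485 and Mir376c, both lower in KO libraries by the mean, with miR-376b-5p, which shares the seed UGGAUAU with miR-376c-5p, and the arms of Mir134, a microRNA known from neurons, which lies with Mir485 in exons of Mirg. For Mir485 and Mir376c the sequences used gave only the arm printed.
miR-485-3p: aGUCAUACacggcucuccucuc
miR-376c-5p: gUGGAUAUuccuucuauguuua
miR-376b-5p: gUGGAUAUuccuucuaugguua
miR-134-5p: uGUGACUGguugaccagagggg
miR-134-3p: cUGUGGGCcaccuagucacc
Over the 61 listed hairpins of the interval RefSeq gave 113 mature arms with 104 different seeds, and 10 of these seeds occurred in 2 hairpins.

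Rian carries the small nucleolar RNAs, and 4 of the 7 listed are shown to compare the most abundant with 3 that resemble each other. The capitals mark TGATGA, the core of box C, and the last CTGA, box D.
AF357425: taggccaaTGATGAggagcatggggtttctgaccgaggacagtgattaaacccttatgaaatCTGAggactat
DQ267100: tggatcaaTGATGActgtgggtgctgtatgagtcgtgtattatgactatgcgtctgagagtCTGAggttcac
DQ267101: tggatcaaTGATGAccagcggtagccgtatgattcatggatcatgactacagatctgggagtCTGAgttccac
DQ267102: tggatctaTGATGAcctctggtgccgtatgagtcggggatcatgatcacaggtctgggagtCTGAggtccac
In all 4 TGATGA started at base 9 and the last CTGA at base 62 or 63. DQ267100, DQ267101 and DQ267102 were 76.7% to 83.6% identical to each other and 56.0% to 59.5% identical to AF357425. Whether any reads were shared among these 3 was not tested.

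The 3 maternal noncoding RNAs were higher in every KO library than in every WT library, while the 3 paternal coding genes were below 3 TPM and overlapped between the groups. Meg3, a long noncoding RNA known as a growth suppressor, had 50.9, 69.3 and 66.1 TPM in KO libraries 1 to 3, against 44.4, 30.1 and 27.5 TPM in WT libraries 1 to 3. Its lowest KO library stood just above the highest WT library. The KO mean was 62.1 ± 9.80 TPM and the WT mean 34.0 ± 9.09 TPM (SD, n = 3 each), a ratio of 1.83 and a log2 difference of 0.87 with an SE of 0.25 on log2(TPM + 1), the scale of the log2 differences of genes below.

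Rian, the host of the small nucleolar RNAs, had 46.5, 49.1 and 46.4 TPM in KO libraries 1 to 3, against 29.1, 24.3 and 21.9 TPM in WT libraries 1 to 3. The KO libraries lay close together and far above the WT libraries. The KO mean was 47.3 ± 1.51 TPM and the WT mean 25.1 ± 3.65 TPM (SD, n = 3 each), a ratio of 1.89 and a log2 difference of 0.90 with an SE of 0.12. Mirg, the host of the last block of microRNAs, had 6.35, 6.06 and 5.92 TPM in KO libraries 1 to 3, against 4.48, 2.98 and 3.21 TPM in WT libraries 1 to 3. Here too no WT library reached the lowest KO library. The KO mean was 6.11 ± 0.219 TPM and the WT mean 3.56 ± 0.808 TPM (SD, n = 3 each), a ratio of 1.72 and a log2 difference of 0.66 with an SE of 0.14.

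The count of 3 of 6 members with every KO library above every WT library stands beside a background of 1210 of 8971 genes tested (13.5%), and the 0 members with every KO library below beside 275 (3.07%). Since these values chose the members, nothing is read from the count. The median log2 difference of all genes tested was 0.12, and 77.6% of them had a log2 difference above 0. A log2 difference as high as that of Meg3, Rian and Mirg was seen in 1.26%, 1.18% and 2.25% of the genes tested. When libraries were scaled by the median of ratios, the median of all genes moved to 0.01. The log2 differences then were 0.72 for Meg3, 0.75 for Rian and 0.53 for Mirg, and the groups of each still did not overlap. In bulk libraries, more cells of a type that makes these RNAs and more RNA in each cell cannot be told apart.

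Among the WT libraries, library 1 was the highest for all 3 noncoding RNAs, at 44.4, 29.1 and 4.48 TPM for Meg3, Rian and Mirg. Among the KO libraries the order was not shared, since KO library 1 was the lowest for Meg3 and the highest for Mirg. Leaving out each library in turn gave log2 differences of 0.74 to 1.07 for Meg3, 0.81 to 1.01 for Rian and 0.57 to 0.80 for Mirg.

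Dlk1 had 0.26, 0.15 and 0.97 TPM in KO libraries 1 to 3, against 0.17, 0.11 and 0.21 TPM in WT libraries 1 to 3. KO library 3 stood apart from the other 5 libraries, which overlapped. The log2 difference was 0.29 with an SE of 0.24, and 0.05 without KO library 3. Rtl1 had 1.55, 2.44 and 1.92 TPM in KO libraries 1 to 3, against 1.26, 1.96 and 1.30 TPM in WT libraries 1 to 3, and its groups overlapped. Its KO mean of 1.97 ± 0.447 TPM and WT mean of 1.51 ± 0.393 TPM (SD, n = 3 each) gave a log2 difference of 0.25 with an SE of 0.18. Dio3 had 0.06, 0.05 and 0 TPM in KO libraries 1 to 3, against 0.06, 0.11 and 0.15 TPM in WT libraries 1 to 3. The groups met at 0.06 TPM, and the value of 0 may be a failed estimate. At these levels Dlk1 and Dio3 did not pass this filter on low values, so 4 of the 6 members are among the genes tested.

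**Figure D1:**
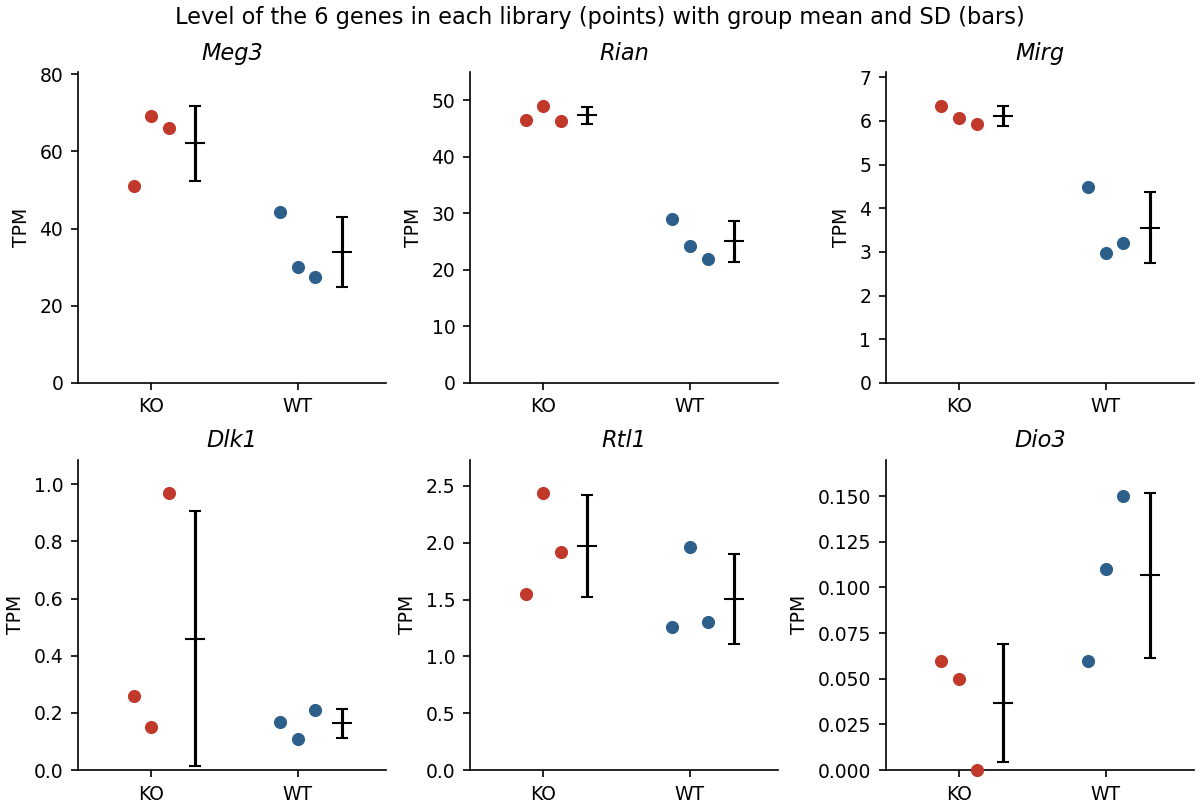
TPM of each of the 6 genes in the 3 KO (red) and 3 WT (blue) libraries, with the group mean and SD as black bars. Meg3, Rian and Mirg lie higher in all KO libraries than in any WT library, while Dlk1, Rtl1 and Dio3 overlap.

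By level the order was Meg3, Rian, Mirg, Rtl1, Dlk1 and Dio3 in the means of both groups. Meg3 and Rian did not overlap in KO libraries but did in WT libraries, although Meg3 was above Rian within each of the 6 libraries, and Dlk1 and Dio3 overlapped in WT libraries. Meg3 ranked 371 by mean TPM among the 24980 rows, Rian 456 and Mirg 3146. Meg3, Rian and Mirg summed to 104, 124 and 118 TPM in KO libraries 1 to 3 and to 77.9, 57.3 and 52.6 TPM in WT libraries 1 to 3. They made up 98.2%, 97.9% and 97.6% of the summed TPM of the 6 genes in KO libraries 1 to 3 and 98.1%, 96.3% and 96.9% in WT libraries 1 to 3. Dlk1, Rtl1 and Dio3 summed to 1.87, 2.64 and 2.89 TPM in KO libraries 1 to 3 and to 1.49, 2.18 and 1.66 TPM in WT libraries 1 to 3, with a ratio of means of 1.39 and overlapping groups. Neither sum tells the parental copies apart, since the files hold no allele information.

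The balance among the noncoding RNAs, which does not depend on a library's total, overlapped between the groups. The ratio of Rian to Meg3 was 0.913, 0.708 and 0.702 in KO libraries 1 to 3, against 0.655, 0.806 and 0.796 in WT libraries 1 to 3. The ratio of Mirg to Meg3 was 0.125, 0.0875 and 0.0896 in KO libraries 1 to 3, against 0.101, 0.099 and 0.117 in WT libraries 1 to 3. On the log2 scale of the ratios themselves, with no pseudocount, both had differences of 0.04 for Rian and −0.09 for Mirg, with KO library 1 the highest of all 6 in each. The ratio of Mirg to Rian averaged 0.129 ± 0.00670 in KO libraries and 0.141 ± 0.0163 in WT libraries (SD, n = 3 each), also with overlap. The ratio of Rtl1 to Meg3 averaged 0.0316 ± 0.00324 in KO libraries and 0.0469 ± 0.0184 in WT libraries (SD, n = 3 each), and that of Dlk1 to Meg3 ranged over 0.00217 to 0.0147 in KO libraries and over 0.00365 to 0.00764 in WT libraries. With 3 libraries a group, such overlap does not show that the balance was the same.

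**Figure D2:**
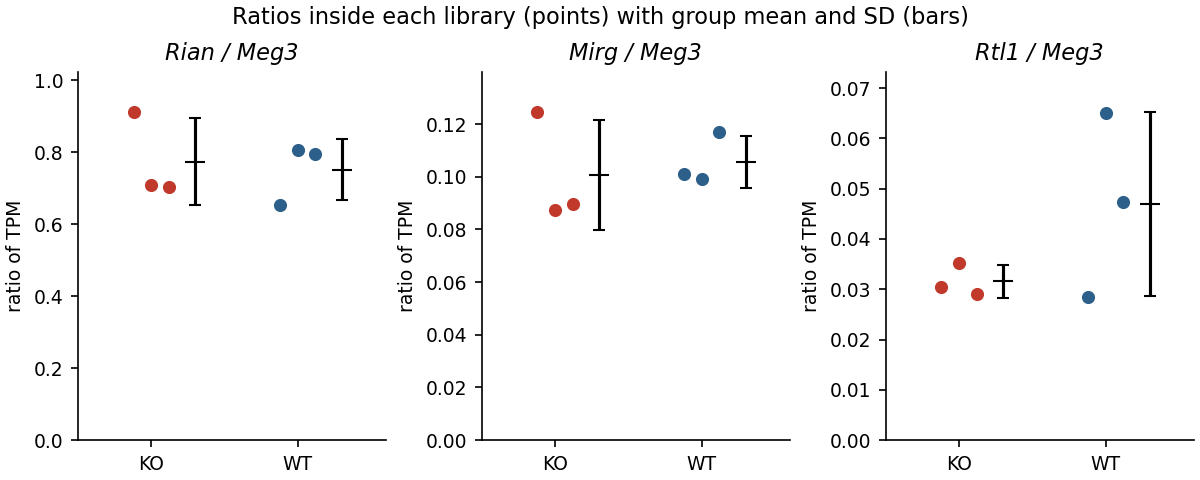
Ratios of TPM of Rian, Mirg and Rtl1 to Meg3 inside each of the 3 KO (red) and 3 WT (blue) libraries, with group mean and SD as black bars. The KO and WT ranges overlap in all 3 panels, for example 0.702 to 0.913 against 0.655 to 0.806 for Rian to Meg3.

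The microRNA hairpins of the interval were as a sum higher in every KO library, but no hairpin passed the test. Of 67 annotated hairpins 61 were listed, and their summed level was 176, 242 and 203 TPM in KO libraries 1 to 3, against 142, 152 and 103 TPM in WT libraries 1 to 3. The KO mean of this sum was 207 ± 32.9 TPM and the WT mean 132 ± 26.1 TPM (SD, n = 3 each). By gene the picture was uneven. In every library 15 hairpins were at 0, and 34 passed the filter. Of these 34, 25 had a log2 difference above 0 and 9 below, beside 77.6% above 0 of all genes tested, with a median of 0.52 beside 0.12 for all genes (0.45 beside 0.01 after median-of-ratios scaling). With limma and Benjamini-Hochberg adjustment over all genes, 0 of the 34 were called and the lowest adjusted p was 0.23, beside 0.0334% of all genes called higher and 0.0223% called lower. These are 3 and 2 genes, against 1 and 2 after median-of-ratios scaling and 39 and 51 with small structured and ribosomal RNAs removed. At an unadjusted p under 0.05, 3 hairpins were higher in KO and 2 lower, beside 7.89% higher and 2.66% lower of all genes (708 and 239, or 355 and 435 after median-of-ratios scaling).

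Single hairpins varied widely between libraries of a group, and 22 of the 34 that passed were at 0 in at least 1 library. Mir1193 had 17.1, 14.0 and 27.7 TPM in KO libraries 1 to 3, against 16.7, 11.4 and 5.6 TPM in WT libraries 1 to 3. It had the highest mean level of the hairpins, and its groups overlapped, with an adjusted p of 0.480 in the limma fit. Mir668 had 5.96, 27.0 and 17.0 TPM in KO libraries 1 to 3, against 6.91, 0 and 4.95 TPM in WT libraries 1 to 3. Its log2 difference was 2.07 and its adjusted p 0.381 in the limma fit, and KO library 1 lay below WT library 1. Mir485 had 1.87, 5.16 and 2.51 TPM in KO libraries 1 to 3, against 8.53, 5.93 and 6.47 TPM in WT libraries 1 to 3. It was the only hairpin of the 34 whose groups did not overlap, with every KO library below every WT library, beside 3.07% of all genes tested; 0 hairpins had every KO library above every WT library, beside 13.5%. Its log2 difference was −1.0 with an adjusted p of 0.23 in the limma fit. Both Mir668 and Mir485 lie in Mirg exons, in the window printed above, and their log2 differences had opposite signs.

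Mir376c, from the block between Rian and Mirg, had 0, 2.29 and 0 TPM in KO libraries 1 to 3, against 3.94, 7.67 and 1.79 TPM in WT libraries 1 to 3, with an adjusted p of 0.273 in the limma fit and overlapping groups. Mir154, in a Mirg intron, had 1.99, 8.10 and 8.52 TPM in KO libraries 1 to 3, against 4.61, 0 and 0 TPM in WT libraries 1 to 3, with an adjusted p of 0.387 in the limma fit. Neither separated the groups. Mir540 had 1.97, 16.2 and 14.0 TPM in KO libraries 1 to 3, against 2.27, 6.46 and 0 TPM in WT libraries 1 to 3. Mir134 had 9.53, 5.21 and 7.83 TPM in KO libraries 1 to 3, against 6.58, 3.06 and 2.30 TPM in WT libraries 1 to 3, with a log2 difference of 0.84 and an adjusted p of 0.384 in the limma fit. Mir666 had 14.3, 4.12 and 8.95 TPM in KO libraries 1 to 3, against 3.44, 17.9 and 9.10 TPM in WT libraries 1 to 3. These groups overlapped too, and for Mir666 the 2 highest values came from different groups. Mir539 and Mir341, with mean levels of 6.32 and 6.26 TPM over all libraries, overlapped as well. Their log2 differences were −0.82 and 0.49, with adjusted p of 0.737 and 0.527 in the limma fit.

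The seed partners of Mir1193 overlapped between the groups. Mir379, whose 5′ arm has the seed of miR-1193-5p, averaged 3.79 ± 3.29 TPM in KO libraries and 2.74 ± 2.52 TPM in WT libraries (SD, n = 3 each). Mir370, whose 5′ arm has the seed of miR-1193-3p, averaged 4.08 ± 3.74 TPM in KO libraries and 2.97 ± 1.09 TPM in WT libraries (SD, n = 3 each). Mir376b, the seed partner of Mir376c, was at 0 in every library. Mir3070a and Mir3070b are near copies of each other and their reads may be split.

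By position, 2 hairpins lay in Meg3, 3 in Rian and 14 in Mirg, 9 of these in exons and 5 in introns; 6 lay opposite Rtl1 exons and 1 along them, and 35 lay in none of the 6 genes. Both hairpins in Meg3 exons, Mir770 and Mir1906-1, were at 0 in every library although Meg3 was the most abundant member. Of the 6 hairpins that lie opposite Rtl1 exons, 4 were at 0 in every library: Mir431, Mir127, Mir434 and Mir136. MicroRNAs from this block are known in mouse to direct cleavage of Rtl1 RNA. The labels do not state whether counting used strand, so reads of Rtl1 and of these hairpins cannot be told apart. The RefSeq span of Rtl1, chr12:109564900-109604418, also runs over the ends of Meg3 and Rian. Nor do these libraries separate mature microRNAs from precursors or from host RNA over the same bases.

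The 7 listed small nucleolar RNAs all lie in the span of Rian, and their summed level overlapped between the groups. It was 262, 399 and 417 TPM in KO libraries 1 to 3, against 286, 303 and 377 TPM in WT libraries 1 to 3. The lowest and the highest library were both KO. The means were 359 ± 84.5 TPM in KO libraries and 322 ± 48.8 TPM in WT libraries (SD, n = 3 each), while Rian itself did not overlap. Of the 7, 6 passed the filter, 5 had a log2 difference above 0 and 1 below, beside 77.6% above 0 of all genes tested, with a median of 0.28 beside 0.12 for all genes (0.15 beside 0.01 after median-of-ratios scaling), and 0 were called by limma, the lowest adjusted p being 0.473 and 0 having an unadjusted p under 0.05.

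AF357425 had 114, 109 and 187 TPM in KO libraries 1 to 3, against 128, 160 and 165 TPM in WT libraries 1 to 3, a log2 difference of −0.18. AF357426 had 41.3, 121 and 78.5 TPM in KO libraries 1 to 3, against 43.2, 35.5 and 55.9 TPM in WT libraries 1 to 3, a log2 difference of 0.72. DQ267102 had 17.2, 20.9 and 31.3 TPM in KO libraries 1 to 3, against 17.5, 6.12 and 16.1 TPM in WT libraries 1 to 3, a log2 difference of 0.84. AF357355, more abundant by the mean than AF357426 and DQ267102, had 78.14, 109.5 and 104.4 TPM in KO libraries 1 to 3. It had 81.12, 76.55 and 128.7 TPM in WT libraries 1 to 3, a log2 difference of 0.05. In each of these genes at least 1 KO library lay below a WT library. DQ267100 and DQ267101, which resemble DQ267102 in sequence, had log2 differences of 0.32 and 0.24.

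**Figure D3:**
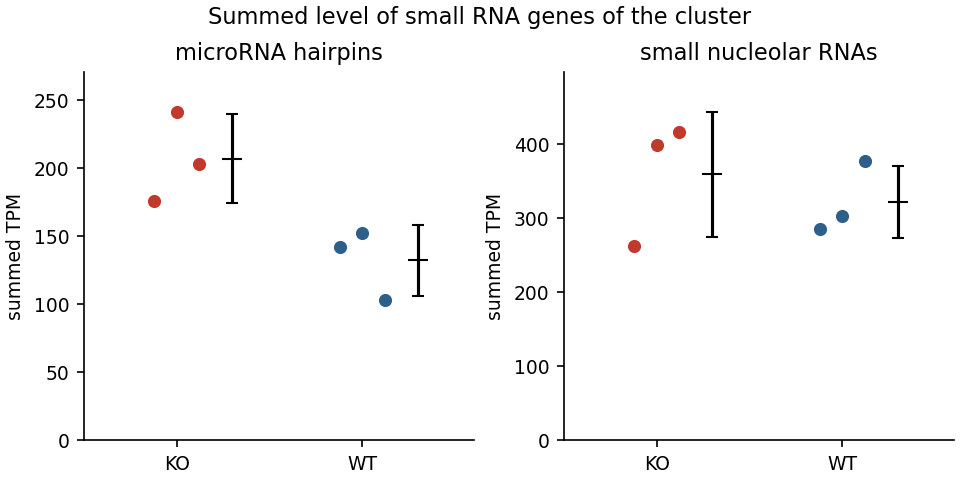
Summed TPM of the 61 listed microRNA hairpins (left) and the 7 listed small nucleolar RNAs (right) of the interval in the 3 KO (red) and 3 WT (blue) libraries, with group mean and SD as black bars. The hairpin sums do not overlap (KO from 176 TPM up, WT up to 152 TPM), while those of the small nucleolar RNAs do.

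Outside the interval no gene close to it passed the test. Within 1 Mb on either side 29 genes were listed and 16 passed the filter. By limma 0 of the 16 were called or had an unadjusted p under 0.05, the lowest adjusted p being 0.570, and 1, Traf3, had every KO library above every WT library, beside 13.5% of all genes tested. Their median log2 difference was 0.09, and −0.03 after median-of-ratios scaling. Before Dlk1, the nearest passing coding genes were Wars, a tRNA synthetase, with 2.27 ± 0.325 TPM in KO libraries and 2.16 ± 0.243 TPM in WT libraries (SD, n = 3 each), Yy1, a zinc finger transcription factor, with 10.3 ± 1.03 TPM in KO libraries and 10.4 ± 1.42 TPM in WT libraries, and Evl, an actin regulator, with 3.89 ± 0.971 TPM in KO libraries and 3.88 ± 0.419 TPM in WT libraries. These 3 had log2 differences of 0.05, 0.00 and −0.01. After Dio3 they were Ppp2r5c, a phosphatase subunit, with a log2 difference of 0.18, Dync1h1, the dynein heavy chain, with 0.24, and 1700001K19Rik, with an adjusted p of 0.794. The difference between the cluster and its neighbours was not tested, because the members were chosen by their values.

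**Figure D4:**
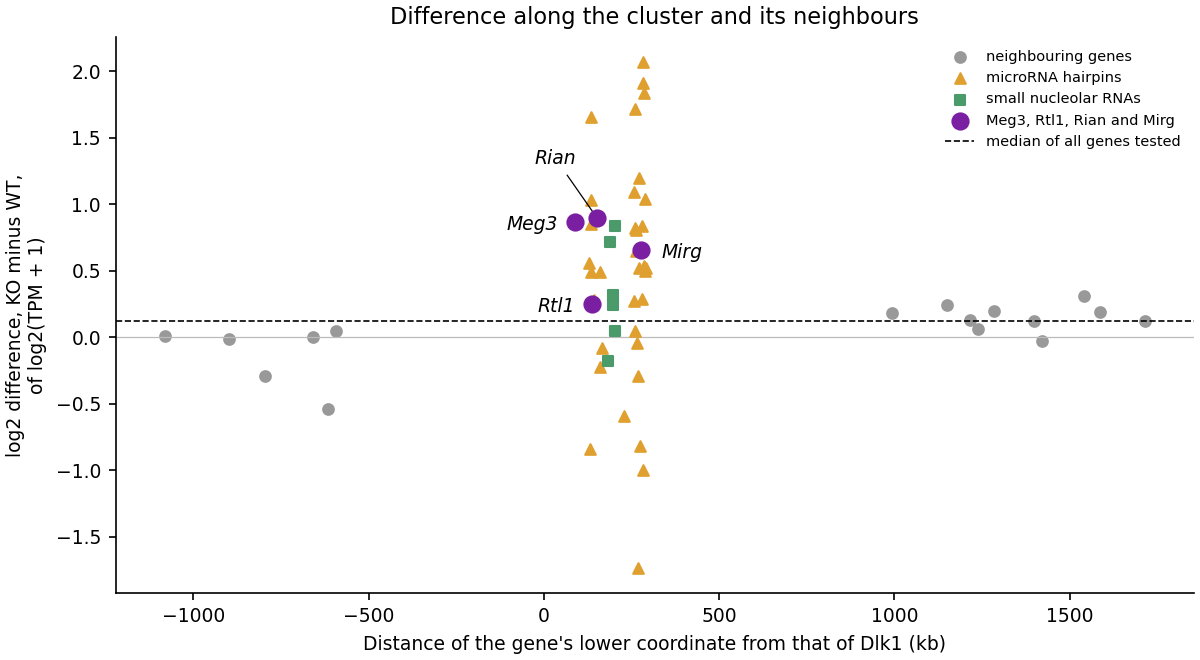
Log2 difference (KO minus WT, on log2(TPM + 1)) of genes that passed the filter against distance along chromosome 12 from Dlk1 in kb. Of the members (purple), Meg3, Rian and Mirg lie at 0.66 to 0.90 and Rtl1 at 0.25. The hairpins (triangles) spread from −1.73 to 2.07, and the neighbouring genes (grey) lie from −0.54 to 0.31, around the dashed median of all genes at 0.12.

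Imprinted genes outside the cluster were followed as a list of 33, of which 20 passed the filter. Of these 1, H19, rose in KO libraries by the limma test, 0 fell, and 10 had every KO library above every WT library, beside 13.5% of all genes tested. The log2 difference was above 0 for 16 and below 0 for 4, beside 77.6% above 0 of all genes tested, with a median of 0.31, and of 0.20 after median-of-ratios scaling. The list holds genes picked with earlier results of these libraries known and is not independent evidence.

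H19, a maternally expressed noncoding RNA that like Meg3 carries a microRNA, had 12.2, 13.9 and 16.6 TPM in KO libraries 1 to 3, against 3.24, 4.24 and 1.81 TPM in WT libraries 1 to 3. The libraries of the groups lay far apart, and the log2 difference was 1.93 with a limma adjusted p of 0.0491. The call was lost under 8 of 13 other settings, among them leaving out KO library 1, 2 or 3 or WT library 1, where the adjusted p was 0.0885, 0.101, 0.140 and 0.0715; over all 13 it ranged from 0.0187 to 0.319 and the log2 difference from 1.25 to 2.23. Mest, a paternally expressed hydrolase-like gene, had 6.14, 5.29 and 9.84 TPM in KO libraries 1 to 3, against 2.83, 1.93 and 2.78 TPM in WT libraries 1 to 3, with an adjusted p of 0.137 in the limma fit. Plagl1, a zinc finger transcription factor of the imprinted gene network, averaged 10.5 ± 1.61 TPM in KO libraries and 6.48 ± 0.80 TPM in WT libraries (SD, n = 3 each), with a log2 difference of 0.61 and an adjusted p of 0.209 in the limma fit. Gnas, which encodes a G protein subunit, averaged 357 ± 18.9 TPM in KO libraries and 253 ± 20.5 TPM in WT libraries (SD, n = 3 each), with an adjusted p of 0.222 in the limma fit. In Mest, Plagl1 and Gnas too the groups did not overlap, but none passed the test.

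**Figure D5:**
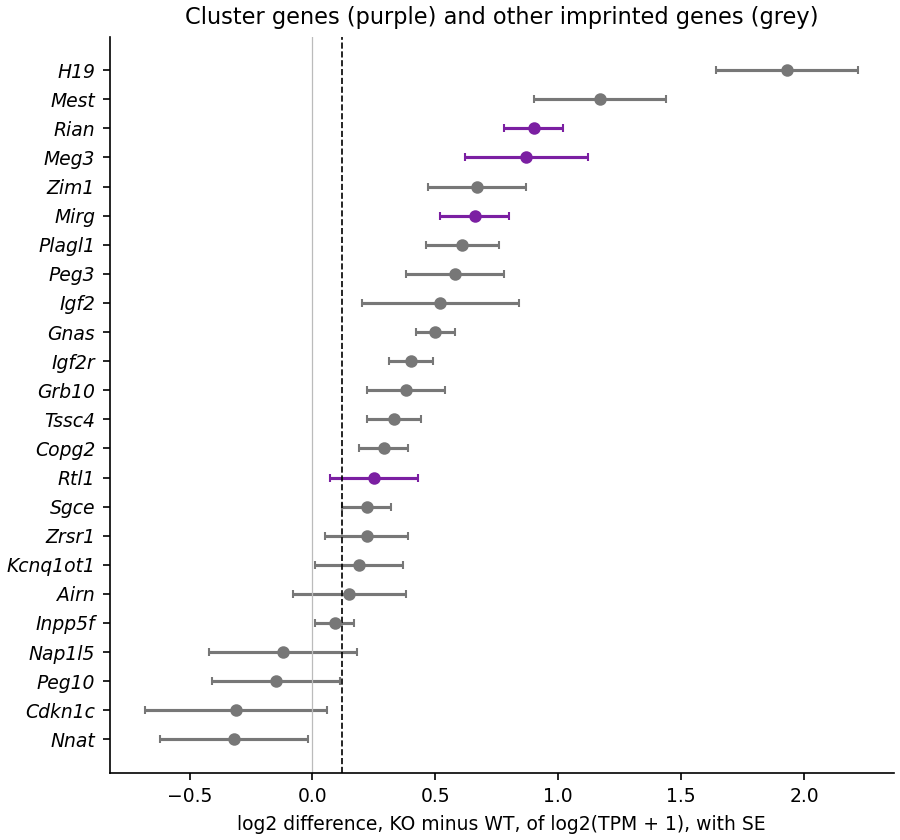
Log2 difference (KO minus WT, on log2(TPM + 1)) with its SE for the 4 cluster members that passed the filter (purple) and the 20 other imprinted genes (grey); the dashed line is the median of all genes tested, 0.12. Rian, Meg3 and Mirg lie at 0.90, 0.87 and 0.66, below H19 at 1.93 and Mest at 1.17 and above most of the others.

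Among genes that set or keep imprints none passed the test. Of the 18 listed, 11 passed the filter and 0 were called by limma in either direction. At an unadjusted p under 0.05 in limma, 1 of the 11 was higher in KO, beside 7.89% of all genes tested. Their median log2 difference was 0.13, and −0.01 after median-of-ratios scaling. Hdac3, a histone deacetylase, averaged 2.50 ± 0.405 TPM in KO libraries and 1.72 ± 0.415 TPM in WT libraries (SD, n = 3 each), with an adjusted p of 0.457 in the limma fit. Dnmt1, the maintenance DNA methyltransferase, had 1.65, 1.74 and 3.39 TPM in KO libraries 1 to 3, against 1.5, 1.23 and 1.63 TPM in WT libraries 1 to 3, with an adjusted p of 0.553 in the limma fit. The KO libraries of Dnmt1 stood above the WT libraries only narrowly, apart from KO library 3. Dnmt1 and Dnmt3a, which had a log2 difference of 0.09, were 2 of the 11 with every KO library above every WT library, beside 13.5% of all genes tested. Ctcf, an insulator protein, had a log2 difference of 0.14, and Tet3, a methylcytosine oxidase, one of 0.17.

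Of 8 muscle regulators linked to the cluster 4 passed, 0 were called by limma or had an unadjusted p under 0.05, and their median log2 difference was 0.11 (−0.01 after median-of-ratios scaling). Mef2a averaged 9.39 ± 0.921 TPM in KO libraries and 9.31 ± 1.72 TPM in WT libraries (SD, n = 3 each), a log2 difference of 0.02. Of the 10 Polycomb partners, taken because Meg3 RNA is known to bind this repressive complex, 9 passed and 0 were called or had an unadjusted p under 0.05 in limma, with a median of 0.16 (0.03 after median-of-ratios scaling). Jarid2, a cofactor of the complex, had 2.83, 3.25 and 2.88 TPM in KO libraries 1 to 3, against 3.74, 3.89 and 3.60 TPM in WT libraries 1 to 3. It was 1 of these 9 genes, and the only one, with every KO library below every WT library, beside 3.07% of all genes tested, and its adjusted p was 0.480 in the limma fit. Ezh2, its methyltransferase, averaged 7.61 ± 0.372 TPM in KO libraries and 6.14 ± 1.16 TPM in WT libraries (SD, n = 3 each), with an adjusted p of 0.543 in the limma fit. In the other direction 1 of the 9, Rbbp4, had every KO library above every WT library, beside 13.5% of all genes tested. Rbbp4 averaged 11.8 ± 0.550 TPM in KO libraries and 9.83 ± 0.283 TPM in WT libraries (SD, n = 3 each), with an adjusted p of 0.524 in the limma fit.

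Notch pathway genes and other partners of Dlk1 numbered 17, of which 12 passed. By limma 0 were called, 4 had an unadjusted p under 0.05 and were higher in KO, beside 7.89% of all genes tested, and 5 had every KO library above every WT library, beside 13.5%, with a median of 0.26 (0.15 after median-of-ratios scaling). Fn1, fibronectin, averaged 4.97 ± 1.38 TPM in KO libraries and 2.59 ± 0.185 TPM in WT libraries (SD, n = 3 each), with an adjusted p of 0.209 in the limma fit. Notch1, the receptor, averaged 10.3 ± 0.892 TPM in KO libraries and 7.03 ± 1.5 TPM in WT libraries (SD, n = 3 each), with an adjusted p of 0.294 in the limma fit. Jag1, a Notch ligand, and Notch3, another receptor, had log2 differences of 0.36 and 0.35 with adjusted p of 0.416 and 0.442 in the limma fit.

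Genes that handle thyroid hormone, the substrate of Dio3, numbered 17, of which 13 passed and 0 were called by limma. At an unadjusted p under 0.05 in limma, 1 of the 13 was higher in KO, beside 7.89% of all genes tested. Their median log2 difference was 0.08 (−0.05 after median-of-ratios scaling). Ncoa1, a nuclear receptor coactivator, had 14.8, 15.3 and 14.9 TPM in KO libraries 1 to 3, against 11.0, 11.0 and 10.5 TPM in WT libraries 1 to 3. The libraries of each group were close together and the groups apart, yet the adjusted p was 0.23 in the limma fit. Ncoa1 and Thra, a thyroid hormone receptor, were 2 of the 13 with every KO library above every WT library, beside 13.5% of all genes tested. Thra had a log2 difference of 0.28 and an adjusted p of 0.532 in the limma fit. Dio2, the deiodinase that activates the hormone, had 8.75, 6.92 and 4.44 TPM in KO libraries 1 to 3, against 5.56, 6.90 and 3.56 TPM in WT libraries 1 to 3, with overlap and an adjusted p of 0.710 in the limma fit. Dio1 was at 0 in every library. Of 13 genes of small RNA processing 11 passed and 0 were called or had an unadjusted p under 0.05 in limma, with a median of 0.12, the value of all genes tested (0.01 after median-of-ratios scaling); Dgcr8, which helps cut microRNA hairpins, and Xpo5, which exports them, had log2 differences of 0.18 and 0.15.

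In the RefSeq promoter windows of 300 bases, motifs were searched on both strands. The estrogen response element in its palindromic consensus form was in 0 of the windows of Meg3, Rian, Mirg, Dlk1 and Dio3, and in 0.07% of all 32851 windows. The cAMP response element TGACGTCA was in the Meg3 window printed above and in 1.79% of all windows. That window also held TGCCGC, the hexamer bound by Zfp57, found in 11.6% of all windows. The E box CANNTG, found in 72.3% of all windows, was in those of Rian, Mirg and Dio3, and CCCTC, the core of the CTCF motif, found in 66.0%, was in those of Rian, Dlk1 and Dio3. A second Meg3 window in the table held both of these and not the cAMP response element. The MEF2 motif, found in 3.19% of all windows, was in none of them. These matches describe the letters of the windows and no binding.

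The genes whose profile over the 6 libraries was most like that of a noncoding member were looked for among those with at least 0.8 times its spread, as the smallest root mean square difference of centred log2(TPM + 1). For Meg3, among 505 such genes, they were Edn3 (0.071), Uck2 (0.072), Ank3 (0.114), Kcnn3 (0.155) and Nppc (0.158), and Rian itself was at 0.156. Edn3, an endothelin peptide, had 13.2, 16.8 and 17.0 TPM in KO libraries 1 to 3, against 9.86, 6.77 and 6.75 TPM in WT libraries 1 to 3. For Rian, among 585, they were Scara5 (0.077), Ank3 (0.104), Islr (0.117), Actn3 (0.124) and Edn3 (0.124). Ank3, which encodes ankyrin G and was near both, had 11.5, 13.1 and 12.4 TPM in KO libraries 1 to 3, against 9.01, 6.53 and 5.65 TPM in WT libraries 1 to 3. For Mirg, among 1182, they were Tap2 (0.089), Ryr3 (0.095), Rem1 (0.108), Klhl13 (0.112) and Dpt (0.116). Several genes outside the cluster were thus nearer in profile to Meg3, Rian or Mirg than these were to each other, and the likeness rests on 6 libraries in 2 groups.

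Markers of other cell types were present in every library, and their part in the results above was not tested. The 10 markers of fibro-adipogenic progenitors and fibroblasts summed to 120, 137 and 150 TPM in KO libraries 1 to 3 and to 101, 78.6 and 179 TPM in WT libraries 1 to 3. Col3a1 alone gave 117 TPM of the sum in WT library 3. Without Col3a1, left out after its values were seen, the sums were 71.8, 91.6 and 78.4 TPM in KO libraries 1 to 3 and 59.7, 56.8 and 62.3 TPM in WT libraries 1 to 3. These sums did not overlap, but the choice to leave out Col3a1 made that separation, and Dpt alone gave much of them. Of the 6 fibroblast markers that passed, 5 had a log2 difference above 0 and 1 below. The 1 below was Dcn, with means of 9.53 TPM in KO libraries and 10.1 TPM in WT libraries. Pdgfra did not pass the filter, with means of 0.17 TPM in KO libraries and 0.183 TPM in WT libraries. Nor did Lum, Pi16 and Mfap5, whose group means were all below 1 TPM. Cd34, also part of the sums, had means of 18.7 TPM in KO libraries and 17.1 TPM in WT libraries. Dpt, a fibroblast marker and 1 of the 5 genes most like Mirg, had 42.7, 50.9 and 39.1 TPM in KO libraries 1 to 3, against 31.1, 23.4 and 25.8 TPM in WT libraries 1 to 3, with an adjusted p of 0.185 in the limma fit. The 7 Schwann cell markers summed to 8.16, 15.2 and 21.1 TPM in KO libraries 1 to 3 and to 7.12, 6.70 and 9.0 TPM in WT libraries 1 to 3. The 8 endothelial markers summed to 17.5, 57.1 and 37.3 TPM in KO libraries 1 to 3 and to 21.5, 32.7 and 24.4 TPM in WT libraries 1 to 3. The 8 myofibre markers summed to 8.38, 42.2 and 38.5 TPM in KO libraries 1 to 3 and to 11.9, 14.9 and 27.4 TPM in WT libraries 1 to 3. KO library 1 was the lowest of all 6 for the endothelial and myofibre sums. The 6 mural, 7 leukocyte and 4 tenocyte markers also overlapped between the groups in their sums, which ran over 17.9 to 34.5, 2.88 to 4.45 and 2.81 to 10.2 TPM in KO libraries and over 19.6 to 23.4, 2.42 to 3.94 and 3.12 to 4.63 TPM in WT libraries. By limma 0 of the marker genes were called, and those with an unadjusted p under 0.05 were all higher in KO. They were 1 of 10 satellite cell, 1 of 6 fibroblast and 2 of 4 Schwann cell markers that passed, beside 7.89% of all genes tested. Median log2 differences of the markers that passed were 0.19 for satellite cell, 0.34 for fibroblast, 0.34 for endothelial and 0.46 for Schwann cell markers. They were 0.47 for myofibre, 0.35 for tenocyte, 0.26 for mural and 0.16 for leukocyte markers, the last from 1 gene. The median of all genes tested was 0.12. After median-of-ratios scaling the marker medians ran from 0.06 to 0.36, beside 0.01 for all genes. No marker was at 0 in all libraries.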

How the data were processed

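RNA-seq was done on total RNA of sorted satellite cells, 3 KO and 3 WT libraries. Per the submitters' processing notes, kallisto, Trimmomatic 0.33, CASAVA and FastQC were used and the build was GRCm38 (mm10); settings are not given. The authors deposited TPM per gene symbol; how transcripts were summed, strandedness and depth are not given in the sources used here. Of 24980 symbols, 26 had become dates and were left unnamed, and 24461 matched RefSeq. Positions of genes are from GENCODE vM21 (GRCm38), or from RefSeq (GRCm38.p6) for symbols of the interval found only there. Sequences of the small nucleolar RNAs are from GENCODE vM21 and the other sequences from RefSeq.

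Groups came from the genotype labels, and libraries were numbered in accession order, which pairs none. The 8971 genes that reached 1 TPM in 3 or more libraries entered a fit of log2(TPM + 1), KO minus WT, with limma (version 3.58.1, R 4.3.3; eBayes with a trend, two-sided, Benjamini-Hochberg over all genes, threshold 0.05), checked on simulated data. Fold changes on this scale understate those of low genes. The members and lists were chosen with earlier results of these data known, so members got no test and lists no set test. Named were the members, Esr1, up to 12 genes of the interval by mean TPM, the 3 nearest passing coding neighbours on each side, up to 4 members of each list by limma p, and the 5 genes most like a member. Dio1, Traf3, Dcn, Sdc4, Dnmt3a, Pdgfra, Lum, Pi16 and Mfap5 were named after their values were seen. So were the hairpins Mir376c, Mir485, Mir154, Mir134, Mir370, Mir379, Mir376b and those at 0. Alternatives were other pseudocounts, filters, scalings and libraries left out.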

Additional observations from a re-analysis of the deposited data

How the results depend on the processing

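Of 137 values recomputed under other settings, 106 kept their call and stayed within the spread between libraries, 23 moved, 8 (all of H19) lost the call, and no called value changed direction. Meg3, Rian and Mirg stayed above 0 in all 10 alternatives each (0.72 to 1.07, 0.75 to 1.01 and 0.38 to 0.80), the lowest being 0.75 for Rian under median-of-ratios scaling and 0.38 for Mirg with a pseudocount of 5. For the 2 low genes the pseudocount mattered: with 0.1 the log2 difference was 0.82 for Dlk1 and −0.60 for Dio3, and with 5 it was −0.02 for Dio3. Under either rescaling every KO library of Dio3 lay below every WT library, though only narrowly. Under median-of-ratios scaling the highest KO library had 0.060 TPM and the lowest WT library 0.066 TPM. Both were listed as 0.06 TPM before rescaling, so this gap is finer than the listed values resolve.

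Calls over all genes, 3 higher and 2 lower in KO, were unstable, and the cause was not tested. With a pseudocount of 0.1, no filter or a filter on the mean, 0 were higher (728, 1198 and 723 at an unadjusted p under 0.05 in limma), and under median-of-ratios scaling 1 was, with 2 lower. With a pseudocount of 5, no filter or the mean filter, 0 were lower (231, 374 and 243 unadjusted). With small structured and ribosomal RNAs removed and the rest rescaled, 39 were higher and 51 lower. Leaving out each library gave 0 to 4 higher and 0 to 2 lower: 0 higher without KO library 3 and 1 without WT library 1, and 0 lower without KO library 1, 2 or 3 and 1 without WT library 3.

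Leaving out each library gave −0.92 to −0.77 for Esr1, 0.05 to 0.44 for Dlk1, 0.13 to 0.37 for Rtl1 and −0.12 to −0.07 for Dio3. For the ratios to Meg3, with main values of 0.04 for Rian, −0.09 for Mirg and 0.20 for Dlk1, it gave −0.09 to 0.10 for Rian, −0.25 to 0.01 for Mirg and −0.51 to 0.87 for Dlk1. With 1 TPM added to both genes of a ratio they were 0.03, −0.21 and −0.58, so the direction of the Dlk1 ratio turned. Median-of-ratios scaling moved the medians of the Polycomb partners to 0.03, the Dlk1 and Notch partners to 0.15 and the neighbouring genes to −0.03. No paired analysis was possible because no number in the titles occurs in more than 1 library. Depth is unknown, so the precision of low values such as those of Dlk1, Dio3 and the hairpins is unknown too.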
